A study of Mus musculus with 22 samples.

Results

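The 32 genes described here encode enzymes and transporters of glycolysis and components and targets of the cellular response to low oxygen. They were listed by name for their known roles, with earlier results of these data in view and with no threshold on a measured value, and all 32 were found among the 23091 genes of the 22 single-cell RNA libraries. The cells came from the ileum of BALB/c mice, 7 to 9 weeks old when used, which had received 5000000 bone marrow cells from C57BL/6 donors aged 7 to 10 weeks after irradiation in 2 portions of 5 Gy. In the group with acute graft-versus-host disease (aGVHD, 12 libraries) the graft also held 400000 donor T cells, and in the control group (10 libraries) it held none. Both groups were therefore irradiated and transplanted, and neither stands for an untouched ileum. On day 21 the sort took CD45+H2kb+CD11b+Ly6G+ cells, which are neutrophils of donor origin by their surface markers. CEL-Seq2 reads transcripts of single cells on plates from the 3' end, so that a gene's level does not scale with its length. The labels do not say which mouse a library came from, and every p-value therefore measures library-to-library spread, part of which may be technical.

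Of 4224 barcodes, 1383 held at least 500 transcripts and were kept as cells, 11 to 60 in each control library and 74 to 95 in each aGVHD library. Library totals ran from 45607 to 360054 transcripts. Cells were sorted into classes by transcripts of genes that are not members. The S100 class held at least 5 transcripts of S100a8 and S100a9, abundant cytosolic proteins of neutrophils, and at most 2 of the complement genes C1qa, C1qb and C1qc, which mark macrophages. It took in 688 cells, 124 control and 564 aGVHD. The C1q class, with at least 3 C1q transcripts, took in 70 cells, 27 control and 43 aGVHD. The limits on C1q transcripts keep the 2 classes apart by definition, and the rest of the cells fell in neither. The C1q class had no upper limit on S100a8 and S100a9, and its cells also held neutrophil transcripts. Not every kept cell of the neutrophil gate thus fell in the S100 class. Cells of neither class were shallower, with median totals of 1903 (control) and 1695.5 (aGVHD) transcripts, against 2777.5 and 2453.5 in the S100 class. The part of depth in missing the threshold was not tested. In the S100 class 11 of 12 listed neutrophil genes could be tested against the C1q class of the same libraries. All 11 were called higher (adjusted p under 0.05 by limma), S100a8 and S100a9 by construction. That comparison called 346 of 556 genes (62.2%), 212 of them higher. Libraries were numbered by group; their titles form a dated set (6 control, 8 aGVHD) and a set marked G1 (4 and 4), which entered the models as a covariate.

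Glycolysis splits glucose into pyruvate in the cytosol. Glucose enters through the GLUT transporters (Slc2a1, Slc2a3), hexokinases (Hk1, Hk2, Hk3) trap it as a phosphate, phosphofructokinase (Pfkl, Pfkp) commits it, and lactate dehydrogenase A (Ldha) and the lactate exporter MCT4 (Slc16a3) dispose of the end product. Neutrophils have few working mitochondria and draw most of their ATP from this path. When oxygen is low, the prolyl hydroxylases (Egln1, Egln3) no longer mark the transcription factor subunit HIF-1 alpha (Hif1a) for breakdown, and it raises glycolytic genes along with Vegfa, Bnip3, Ndrg1, Adm, Ankrd37 and Hilpda. Since the regulation of Hif1a is largely at the protein level, its transcript does not report its activity.

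The start sites of 4 members called in the comparisons below are shown in their sequence context. Of these, 3 have the core letters of the response element of HIF. Windows of 250 bases before and 50 bases after a start were available for 29 of the 32 genes (39 windows, from RefSeq, mouse build GRCm38.p6). The core letters ACGTG, searched on both strands and including those within CACGTG, were in 24 of these 39 windows (61.5%) and in 6447 of 32851 windows of the same length over all genes (19.6%). The members' windows averaged 62.8% G and C and all windows 53.8%. Several members are on the list because they are known targets of HIF, so both shares are given as a description, and a match is not a bound site. Printed are the 250 bases before a start for 3 genes with the letters and for Gpi1, which has none in its window. Hilpda and Pgam1 were called between cell classes, and Slc16a3 and Gpi1 within the S100 class. The call of Slc16a3 was lost on leaving out any of its 3 libraries. Capitals mark ACGTG.
Hilpda (chr6:29272376-29272625, plus strand): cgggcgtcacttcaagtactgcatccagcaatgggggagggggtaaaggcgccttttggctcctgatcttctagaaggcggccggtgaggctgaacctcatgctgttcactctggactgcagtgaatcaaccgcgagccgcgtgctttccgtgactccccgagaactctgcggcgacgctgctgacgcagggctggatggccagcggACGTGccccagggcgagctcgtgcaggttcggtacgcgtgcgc
Slc16a3 (chr11:120948817-120949066, plus strand): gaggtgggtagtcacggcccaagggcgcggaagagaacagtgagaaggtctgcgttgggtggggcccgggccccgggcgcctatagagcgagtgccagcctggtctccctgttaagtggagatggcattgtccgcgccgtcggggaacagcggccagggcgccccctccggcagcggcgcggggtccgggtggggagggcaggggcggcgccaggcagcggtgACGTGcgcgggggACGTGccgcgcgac
Pgam1 (chr19:41911621-41911870, plus strand): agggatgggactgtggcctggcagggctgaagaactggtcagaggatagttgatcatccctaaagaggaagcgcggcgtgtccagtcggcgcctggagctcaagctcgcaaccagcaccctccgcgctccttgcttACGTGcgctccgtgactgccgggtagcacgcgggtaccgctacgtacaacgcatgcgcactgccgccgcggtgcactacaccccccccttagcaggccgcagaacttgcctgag
Gpi1 (chr7:34230337-34230586, minus strand): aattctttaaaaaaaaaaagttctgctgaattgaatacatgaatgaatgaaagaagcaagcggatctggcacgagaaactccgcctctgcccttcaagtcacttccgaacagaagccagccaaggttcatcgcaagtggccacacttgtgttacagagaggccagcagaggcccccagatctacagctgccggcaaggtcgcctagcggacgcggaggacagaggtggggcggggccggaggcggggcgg
Slc16a3 carried the letters at 2 places close to its start, and Hilpda and Pgam1 at 1 place each. Hilpda has a second RefSeq start whose window held none.

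The members held 15292 transcripts in the kept cells, and a few of them held most. Pkm, pyruvate kinase of muscle and white cells, which makes pyruvate and ATP in the last step, had 2827 transcripts, 18.49% of the members' total. Gapdh, the triose dehydrogenase, had 1841, the aldolase Aldoa 1372 and Ldha 1028. Hilpda, a lipid droplet protein that inhibits the lipase ATGL, had 994 and stood above the lactate exporter Slc16a3 (877), the phosphoglycerate mutase Pgam1 (848) and the phosphoglucose isomerase Gpi1 (753). These 8 genes together gave 68.9% of the members' transcripts. At the other end, 9 members had fewer than 100 transcripts over all 1383 cells, from 84 for Hk1 down to 28 for Ankrd37 and 11 for Adm. Of the enzymes between aldolase and pyruvate kinase, Tpi1 had 445 transcripts, Eno1 220 and Pgk1 138. The near-identical copies Eno1b (104 transcripts) and Pgk1-rs7 (44) are counted apart in the tables, and the levels of Eno1 and Pgk1 are uncertain by at least these amounts.

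The share of the members among transcripts of named genes was higher on average in aGVHD libraries, with overlap. Over all kept cells it averaged 0.482% ± 0.120 (SD, n = 10) in control libraries, against 0.670% ± 0.142 (SD, n = 12) with aGVHD, from 0.291% to 0.648% and from 0.471% to 0.940%. In S100-class cells the share was 0.556% ± 0.0891 (SD, n = 7) and 0.710% ± 0.171 (SD, n = 12). In C1q-class cells it was 0.473% ± 0.209 (SD, n = 4) and 0.550% ± 0.135 (SD, n = 8), and in cells of neither class 0.473% ± 0.0533 (SD, n = 6) and 0.601% ± 0.0994 (SD, n = 11). The mean was thus higher in aGVHD in each class, with overlapping ranges. These shares are a description without a test.

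**Figure D1:**
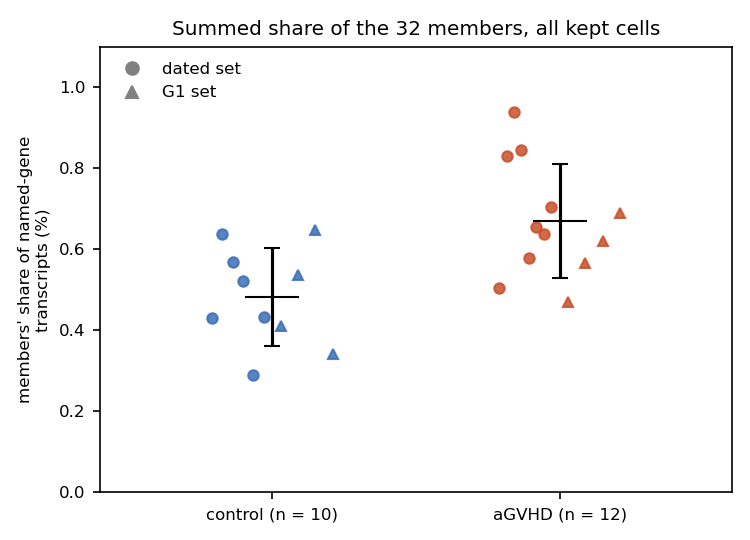
Share of the 32 members among named-gene transcripts (y axis, percent) in each library, over all kept cells, by group (x axis); circles are libraries of the dated set, triangles those of the G1 set, the long tick the group mean and the whiskers 1 SD. Control libraries lie between 0.291% and 0.648% and aGVHD libraries between 0.471% and 0.940%.

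Between groups, over all kept cells, Pkm was the member that rose. Its level is given in scaled CPM, the gene's transcripts divided by the library's summed transcripts after trimmed-mean scaling. In control libraries it ran from 90.6 to 525 with a median of 288, and in aGVHD libraries from 253 to 1038 with a median of 555. The groups overlapped, with 11 of 12 aGVHD libraries above the control mean. The means were 306 ± 138 (SD, n = 10) and 593 ± 218 (SD, n = 12), so that Pkm rose by 0.81 on the log2 scale (SE 0.20, adjusted p = 0.0153 by limma). Of 32 members 16 passed the low-count filter and 1 was called, while 152 of all 1748 genes tested were called (8.7%). Of these 16 coefficients 13 were positive with a median of 0.32, against 0.01 over all genes tested.

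Pkm's call did not hold in subsets of the cells and libraries. The log2 fold change was 0.65 (limma adjusted p = 0.0753) without the cells of very high total or high Kcnq1ot1 share, and 0.68 (adjusted p = 0.143) in libraries of at least 20 kept cells. It was 0.92 in the dated set alone (adjusted p = 0.0689) and 0.70 in the G1 set alone (adjusted p = 0.570). The sorted cells also differed in makeup, and fewer cells of a type cannot be told apart from less RNA per cell in these sums. All 12 neutrophil marker genes had positive coefficients and 5 were called higher (S100a8, S100a9, Cxcr2, Retnlg and Fpr1). Their summed level ran from 3095 to 9773 scaled CPM in control and from 8312 to 34771 in aGVHD libraries. Within cells of neither class Pkm's log2 fold change was 0.52 (adjusted p = 0.374), and within the S100 class 0.57 (adjusted p = 0.322).

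The other glycolytic members gave values that did not pass the test over all kept cells. Hk3, the myeloid hexokinase, ran from 0 to 72.2 scaled CPM (median 41.4) in control and from 28.1 to 125.9 (median 72.8) in aGVHD libraries, with a log2 fold change of 0.77 (limma adjusted p = 0.0916). Just 3 of 10 control libraries reached the filter level for Hk3, so it was tested mainly through the aGVHD libraries. Aldoa ran from 96.1 to 270 (median 189) in control and from 203 to 401 (median 255) in aGVHD libraries. All 12 aGVHD libraries lay above the control mean for Aldoa, and the log2 fold change was 0.42 (adjusted p = 0.0878). Pgam1 gave 0.48 (adjusted p = 0.181), the regulatory kinase Pfkfb4 0.43 (adjusted p = 0.306) and Slc16a3 0.36 (adjusted p = 0.450). Gpi1 gave 0.28, Gapdh 0.27, Hk2 0.20 and Tpi1 0.13, with adjusted p from 0.575 to 0.848. Ldha was at 182 ± 108 (SD, n = 10) and 187 ± 64.4 (SD, n = 12) scaled CPM. Its log2 fold change of -0.02 had a 95% interval from -0.53 to 0.49, which leaves room for a change of either sign, and the sign turned under 6 of 14 alternative settings.

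The members of the oxygen response did not move as one. Hilpda ran from 44.5 to 297 (median 107) scaled CPM in control and from 59.4 to 389 (median 182) in aGVHD libraries, which gave 0.81 on the log2 scale (SE 0.31, adjusted p = 0.101 by limma). The estimate was as large as that of Pkm with a wider error. Mif, a cytokine that is also a known target of HIF, gave 0.78 (adjusted p = 0.0802). Vegfa, the vascular growth factor, had the lowest coefficient of the 16, -0.66 (95% interval -1.44 to 0.12, adjusted p = 0.296), and 1 of 12 aGVHD libraries lay above its control mean. Its control libraries ran from 0 to 421 scaled CPM, and its aGVHD libraries from 15.1 to 139. Hif1a itself gave -0.17 (adjusted p = 0.724) and Bnip3l, a receptor for mitophagy, 0.01 (adjusted p = 0.976).

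**Figure D2:**
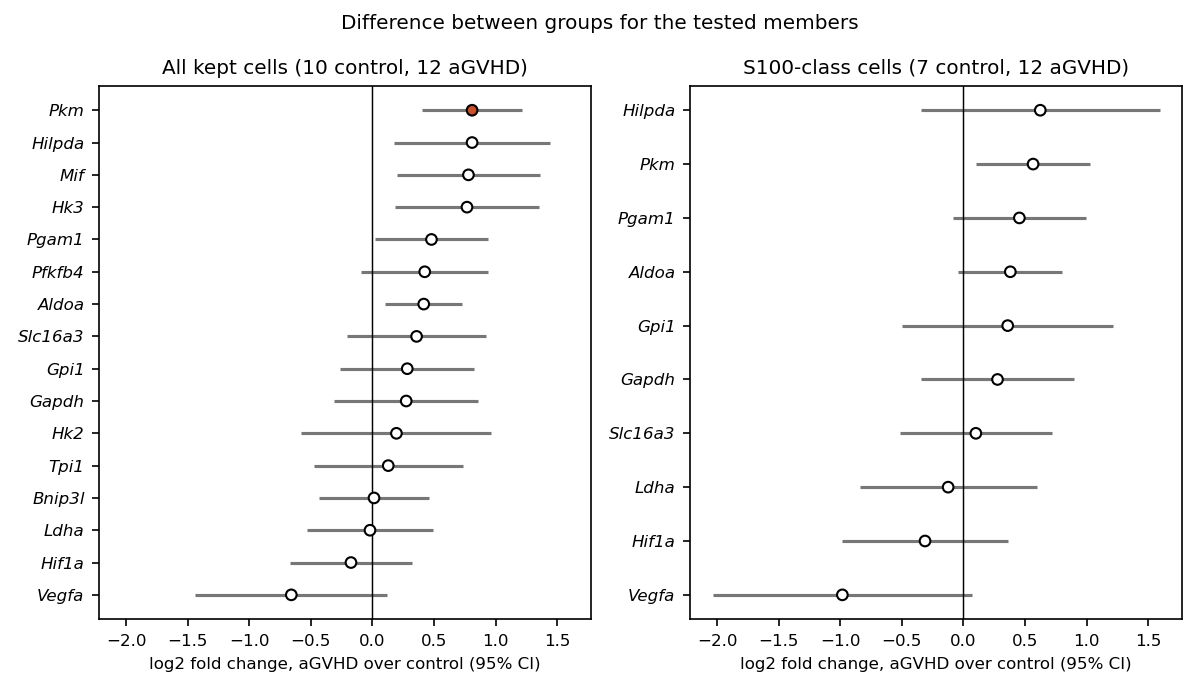
Log2 fold change of aGVHD over control (x axis) with its 95% confidence interval for each member tested, over all kept cells (left, 16 members) and in S100-class cells (right, 10 members); a filled point passed the adjusted p of 0.05. Pkm at 0.81 on the left is the one filled point, and Vegfa lies lowest in both panels at -0.66 and -0.98.

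Within S100-class cells, the sums of 7 control libraries (116 cells) and 12 aGVHD libraries (564 cells), no member passed the test, and 1 of 904 genes did (0.111%, Gsr, glutathione reductase). An unadjusted p under 0.05 was given to 108 of the 904 genes and to 1 of the 10 members tested, Pkm. Pkm ran from 277 to 660 scaled CPM (median 487) in control and from 307 to 1292 (median 620) in aGVHD libraries, which gave 0.57 on the log2 scale (95% interval 0.10 to 1.03, limma adjusted p = 0.322). Of 12 aGVHD libraries 11 lay above the control mean, and aGVHD replicates 7 and 8 were highest at 1292 and 1185. Hilpda ran from 46.4 to 436 (median 130) in control and from 59.8 to 663 (median 196) in aGVHD libraries (log2 fold change 0.62, SE 0.47, adjusted p = 0.580). The 436 of control replicate 8 exceeded the level in 11 of the 12 aGVHD libraries.

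The remaining S100-class values did not pass the test either. Pgam1 was at 164 ± 52.5 (SD, n = 7) and 214 ± 67.6 (SD, n = 12) scaled CPM, with a log2 fold change of 0.45 (limma adjusted p = 0.469). Aldoa was at 244 ± 55.1 and 330 ± 93.9 (0.38, adjusted p = 0.422), and Gpi1 at 117 ± 40.0 and 173 ± 97.4 (0.36, adjusted p = 0.730). The 3 lowest coefficients were those of Vegfa, Hif1a and Ldha. Vegfa ran from 17.1 to 195 (median 139) in control and from 23.4 to 215 (median 62.5) in aGVHD libraries, which gave -0.98 on the log2 scale with a 95% interval from -2.04 to 0.07 (adjusted p = 0.417). Its aGVHD median lay under the filter level of 119 CPM and its control median above it, so its test leaned on the control libraries. Vegfa could be tested on leaving out any of 8 of the 19 libraries, and was not called in these fits. Hif1a gave -0.31 (adjusted p = 0.702) and Ldha -0.12 (adjusted p = 0.897). Gapdh, at 308 ± 140 and 395 ± 179, gave 0.28 (adjusted p = 0.714), and Slc16a3 gave 0.10 (adjusted p = 0.903). The coefficient of Slc16a3 and its means, 283 ± 192 and 260 ± 112, differ in direction, while its medians were 186 in control and 284 in aGVHD libraries. Single libraries moved several of these values by more than 1.5 times: Gapdh was 0.09 without control replicate 7, Gpi1 0.17 without aGVHD replicate 6, and Pgam1 0.25 and Hilpda 0.38 without control replicate 4. The order of levels within this class put Pkm first in both groups.

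**Figure D3:**
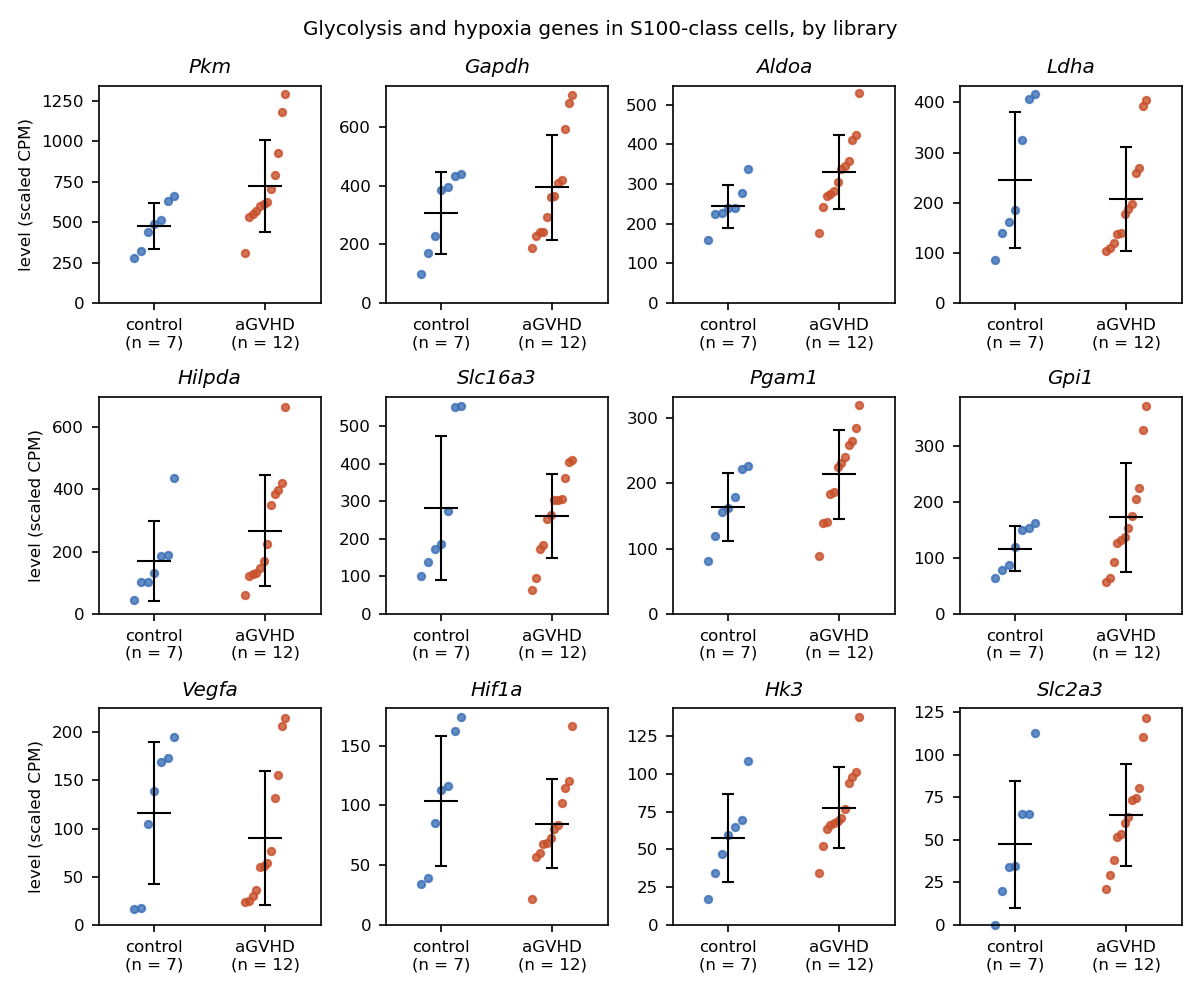
Level of 12 members in S100-class cells (y axes, scaled CPM) in each control (blue) and aGVHD (red) library; the long tick is the group mean and the whiskers 1 SD. The groups overlap for each gene shown, with Pkm reaching 1292 in an aGVHD library against at most 660 in control.

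In C1q-class cells (4 control libraries with 19 cells, 8 aGVHD libraries with 38) the depth allowed 4 members to be tested and none passed, as for all 465 genes (0%). An unadjusted p under 0.05 was given to 30 of them and to no member. Pkm averaged 340 ± 191 (SD, n = 4) in control sums, against 537 ± 253 (SD, n = 8) with aGVHD (log2 fold change 0.27, limma adjusted p = 0.845), a range of 183 to 613 against 201 to 896. Gapdh was at 562 ± 281 and 617 ± 238 scaled CPM, Aldoa at 290 ± 99.5 and 358 ± 145, and Ldha at 226 ± 52.3 and 224 ± 67.0. The group difference was also compared between the title sets in one model. No gene of 1748 was called for that interaction (0%, 90 at an unadjusted p under 0.05), and the lowest adjusted p among 16 members was 0.816, for Tpi1 (difference of log2 fold changes 1.41, SE 0.57).

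Pathways next to glycolysis were followed through lists that exclude the members. In the comparison of groups over all kept cells no gene of them was called. Of the list of citrate cycle and respiratory chain genes 15 could be tested, and all 15 coefficients were negative, with a median of -0.45 against 0.01 over all genes. In S100-class cells all 8 tested had negative coefficients, with a median of -0.43. The sign of each held under both other scalings, with medians of -0.40 to -0.45 over the list in these comparisons. Epithelial marker genes were lower in the median aGVHD library as well. The summed level of 8 such genes ran from 0 to 4866 scaled CPM (median 391) in control and from 4.63 to 1116 (median 78.5) in aGVHD libraries, and in S100-class cells from 0 to 7375 (median 1143) and from 0 to 1518 (median 86.8). The 7 dendritic cell markers summed to 71.1 to 755 (median 217) in control and 31.97 to 162 (median 69.0) in aGVHD libraries over all kept cells. No gene of either list was at 0 in all libraries of a group there, and 1 gene of each could be tested over all kept cells, with coefficients of -1.65 and -0.63 that did not pass. The part of these cells in the values of the respiratory genes and of the members was not tested. Of 12 pentose phosphate and glycogen genes 4 were tested in each of the 2 comparisons, with medians of 0.17 and -0.09. With the total of named genes as the scale 1 of the 4 was called higher over all kept cells. Further genes of the hypoxia response (4 tested in each) had medians of 0.10 and 0.13. Of 28 further genes of glycolysis and sugar entry 1 was tested over all kept cells and none in the S100 class.

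Between the 2 cell classes of a library, most genes tested differed, and the members did so no more often. Hilpda, Pkm and Pgam1 were higher in S100-class cells and Gapdh was higher in C1q-class cells, in 12 libraries where each class had at least 3 cells (448 and 57 cells). Of 7 members tested 4 were called, in a comparison that called 346 of 556 genes (62.2%), so the members' share is not above the background. C1q-class cells were also deeper, with a median total of 7909 transcripts against 2481.5. Their sums were not free of neutrophil transcripts. The 12 neutrophil markers summed to a median of 3296 scaled CPM there (up to 18028), against 20399 in S100-class sums. The median coefficient was 0.18 over the 7 members and 0.37 over all genes.

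Hilpda ranged from 62.2 to 698 scaled CPM (median 202) in S100-class sums and from 0 to 303 (median 83.5) in C1q-class sums. It was higher in the S100 class in 11 of 12 libraries, aGVHD replicate 1 being the other one. The log2 difference was 1.48 (SE 0.33, limma adjusted p = 0.000857). The median C1q-class level lay under the filter level of 157 CPM, so Hilpda was tested mainly through the S100-class sums, where it was high. Hilpda could still be tested on leaving out any of 7 of the 12 libraries, and it kept its call each time. Pkm ranged from 232 to 1549 (median 586) and from 157 to 769 (median 404), higher in 11 of 12 libraries (log2 difference 0.64, SE 0.18, adjusted p = 0.00575). Of all 7 members Pkm had the highest S100-class mean, 649 ± 345 (SD, n = 12), while Gapdh led the C1q class with 542 ± 234 (SD, n = 12).

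Pgam1 was at 212 ± 81.7 (SD, n = 12) scaled CPM in the S100 class and 119 ± 56.7 in the C1q class, higher in 9 of 12 libraries (log2 difference 0.74, SE 0.26, limma adjusted p = 0.0204). Its C1q-class mean lay under the filter level of 157 CPM, so it too was tested mainly through the S100-class sums. Its adjusted p was 0.0561 without aGVHD replicate 2, 0.0582 without replicate 3 and 0.0582 without replicate 7. Gapdh was at 391 ± 193 (SD, n = 12) in the S100 class and higher there in 3 of 12 libraries (log2 difference -0.54, SE 0.21, adjusted p = 0.0324). That call was lost on leaving out any of 7 of the 12 libraries (control replicates 2, 7 and 8 and aGVHD replicates 1, 4, 5 and 9), with adjusted p up to 0.0859. It was also lost with limma-trend (adjusted p = 0.0643), a minimum of 1000 transcripts per cell (0.0582), an S100 minimum of 10 (0.140), a C1q minimum of 5 (0.210), aGVHD libraries alone (0.174) and no low-count filter (log2 difference -0.07, adjusted p = 0.847). Under the cell quality filter the difference over 7 libraries was 0.07 for Gapdh and 1.05 for Pkm (adjusted p = 0.105), whose call was lost there. Gpi1 (-0.29), Ldha (0.18) and Aldoa (0.09) did not pass, and the last was nearly equal in both classes at 298 ± 124 and 296 ± 103 scaled CPM.

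Members below the filter in this comparison are given by their levels. Slc16a3 was at 243 ± 164 scaled CPM in the S100 class and 54.8 ± 53.4 in the C1q class (SD, n = 12 each). The transporter Slc2a3 was at 59.2 ± 33.8 and 7.03 ± 12.1, Slc2a1 at 82.5 ± 33.7 and 27.0 ± 30.7, and the mitophagy receptor Bnip3 at 35.2 ± 18.1 and 5.30 ± 8.43. Hk2 was at 65.8 ± 49.6 and 119 ± 154. Transporters of glucose and lactate thus had higher means in the S100 class and Hk2 a higher mean in the C1q class. With a filter on the mean over all sums, chosen after seeing the data, Slc16a3 was also called higher in the S100 class, in a fit that called 455 of 667 genes (68.2%). With no filter the fit called 8362 of 19822 genes (42.2%), 6933 of them lower, with Slc16a3, Slc2a1, Slc2a3, Bnip3, Eno1, Egln3 and Pfkfb4 among those called higher. Ankrd37 and Adm had 11 and 5 transcripts in the S100-class cells of these 12 libraries and were at 0 in their C1q-class cells. Of neighbouring pathways Taldo1 of the pentose phosphate path was higher in the S100 class (log2 difference 0.83, limma adjusted p = 0.000768). Plaur (1.20) and Cxcr4 (0.73), further genes that respond to hypoxia, were higher too. The respiratory genes Cox4i1 (-1.05) and Atp5b (-0.96) were lower.

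**Figure D4:**
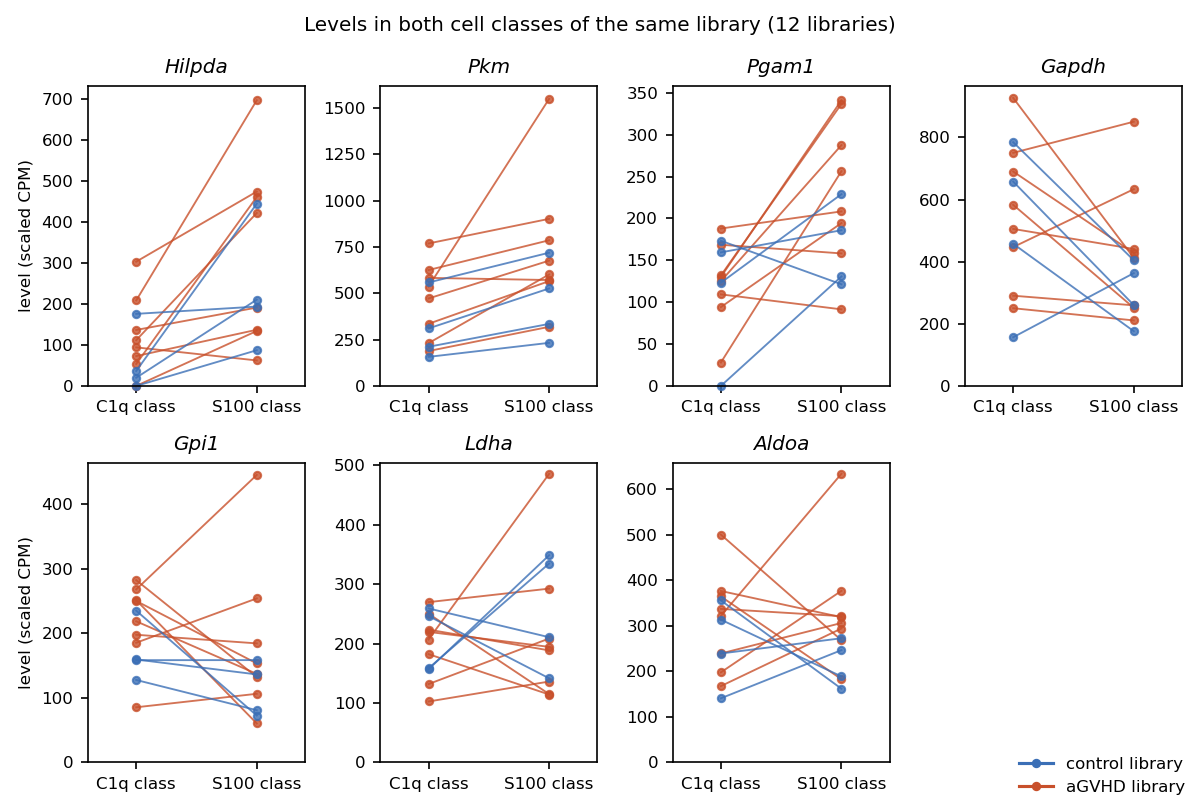
Level of the 7 members tested between cell classes (y axes, scaled CPM), with the C1q-class and S100-class sums of each library joined by a line; blue lines are control and red lines aGVHD libraries. Lines rise in 11 of 12 libraries for Hilpda and Pkm and fall in most for Gapdh.

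Among S100-class cells, those with transcripts of secondary granule genes had a higher level of Gpi1. The test also called Slc2a3 and Hk3, which passed the low-count filter only through those cells. It called Gapdh and Slc16a3 too. Gapdh lost its call on leaving out either of 2 of the 3 libraries, and Slc16a3 on leaving out any of the 3. Ngp, Camp and Ltf encode proteins packed into granules in the marrow and mark younger neutrophils. Cells with at least 3 of their transcripts (granule-rich) numbered 35, all from aGVHD libraries, and cells with none (granule-free) 584. The comparison rests on 3 aGVHD libraries, replicates 4, 6 and 7, with 31 and 130 cells, since no control library held a granule-rich cell. It called 5 of 10 members tested, all higher, and 212 of 889 genes (23.8%), 122 of them higher and 90 lower. Since some of the 10 were tested only because they were high in 1 arm, nothing is read from that count. With the total of named genes as the scale that split was 85 and 111, the median coefficient of all genes moved from -0.03 to -0.17, and 2 members were called, Gpi1 and Slc2a3, among 196 of 889 genes (22%).

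Gpi1, which turns glucose 6-phosphate into fructose 6-phosphate, was at 552, 628 and 717 scaled CPM in the granule-rich cells of replicates 4, 6 and 7 and at 204, 231 and 255 in their granule-free cells. The values did not overlap, and the log2 difference was 1.46 (SE 0.26, limma adjusted p = 0.00119). The call held on leaving out each library in turn, with adjusted p up to 0.0271, and was lost with no low-count filter (1.104, adjusted p = 0.207). The glucose transporter Slc2a3 was at 212, 314 and 191 against 73.5, 80.1 and 31.9 (log2 difference 1.97, SE 0.45, adjusted p = 0.00725). Its adjusted p reached 0.0495 on leaving out a library, and it was 0.207 with no low-count filter. These levels rest on 5, 18 and 12 transcripts of Slc2a3 in the granule-rich cells.

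Slc2a3 and Hk3 reached the filter level, 113 CPM before scaling, in no granule-free sum. Both were thus tested only because of the cells in which they were high. Hk3 was at 170, 244 and 159 scaled CPM against 56.6, 97.9 and 71.7 (log2 difference 1.31, limma adjusted p = 0.0416). With a filter on the mean over all sums, chosen after seeing the data, 223 of 858 genes were called (26%), and Slc2a3 gave 1.91 (adjusted p = 0.00461) and Hk3 1.24 (adjusted p = 0.0504). Without replicate 4 the adjusted p of Hk3 was 0.0960 and without replicate 6 it was 0.237.

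Gapdh was at 722, 994 and 1131 scaled CPM in granule-rich and 351, 623 and 590 in granule-free cells (log2 difference 0.87, SE 0.24, limma adjusted p = 0.0169). Its adjusted p was 0.0715 without replicate 4 and 0.0946 without replicate 6. Slc16a3 was at 212, 628 and 892 against 266, 365 and 279, higher in 2 of 3 libraries (log2 difference 1.02, SE 0.31, adjusted p = 0.0307). Leaving out replicate 4, 6 or 7 gave adjusted p of 0.0640, 0.0997 and 0.294 for Slc16a3, and the log2 difference fell to 0.57 without replicate 7. The remaining members tested were Pkm (log2 difference 0.50, adjusted p = 0.137, higher in 3 of 3 libraries), Hilpda (0.63), Ldha (0.46), Aldoa (0.15) and Pgam1 (0.13). The value of Hilpda rested on single libraries. It was 0.11 (adjusted p = 0.842) without replicate 4 and 1.20 (adjusted p = 0.00637) without replicate 7, its granule-rich level being 1062 in replicate 4 and 349 and 351 in the other 2 libraries.

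Among enzymes beside glycolysis, the transketolase Tkt and the glycogen phosphorylase Pygl were higher in granule-rich cells. Tkt was at 563 ± 59.9 against 159 ± 35.0 scaled CPM (SD, n = 3, log2 difference 1.84, limma adjusted p = 0.000417) and Pygl at 589 ± 222 against 194 ± 85.7 (1.68, adjusted p = 0.00282). The glucose 6-phosphate dehydrogenase G6pdx (380 ± 158 against 77.6 ± 47.1, log2 difference 2.24), Pgd (247 ± 145 against 94.4 ± 13.7) and the ADP-dependent glucokinase Adpgk (221 ± 93.3 against 15.02 ± 3.34, log2 difference 3.63) were called too. Their granule-free means lay under the filter level, so they were tested mainly through the cells in which they were high. Of 5 tested pentose phosphate and glycogen genes 4 were thus called higher, and of all genes 122 of 889 (13.7%), and nothing is read from the first count. Of 4 further hypoxia-response genes 3 were called lower in granule-rich cells, and of all genes 90 of 889, and nothing is read from the first count. They were Zfp36l1 (-1.61), Cxcr4 (-2.69) and Bhlhe40 (-1.53). The granule-rich means of Cxcr4 and Bhlhe40, 45.3 and 72.6 scaled CPM, lay under the filter level. Both were thus tested mainly through the granule-free cells. Of 5 citrate cycle and respiratory chain genes tested none was called.

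The granule-rich cells differed in more than these genes. Their median totals were 2615, 3737 and 4008 transcripts in replicates 4, 6 and 7, against 2283, 2853 and 2583 in granule-free cells. The summed level of the 12 neutrophil markers ran from 101627 to 127668 scaled CPM in granule-rich and from 26214 to 37176 in granule-free sums, with 6 of 12 called higher. The part of depth and of these abundant transcripts in the result was not tested. Some members below the filter had lower means in granule-rich cells, Hk2 at 42.2 ± 10.2 against 128 ± 17.9 scaled CPM, Tpi1 at 35.9 ± 16.2 against 114 ± 36.2 and Mif at 17.4 ± 30.2 against 100 ± 50.3 (SD, n = 3). These rest on 6, 5 and 3 transcripts in the granule-rich cells.

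**Figure D5:**
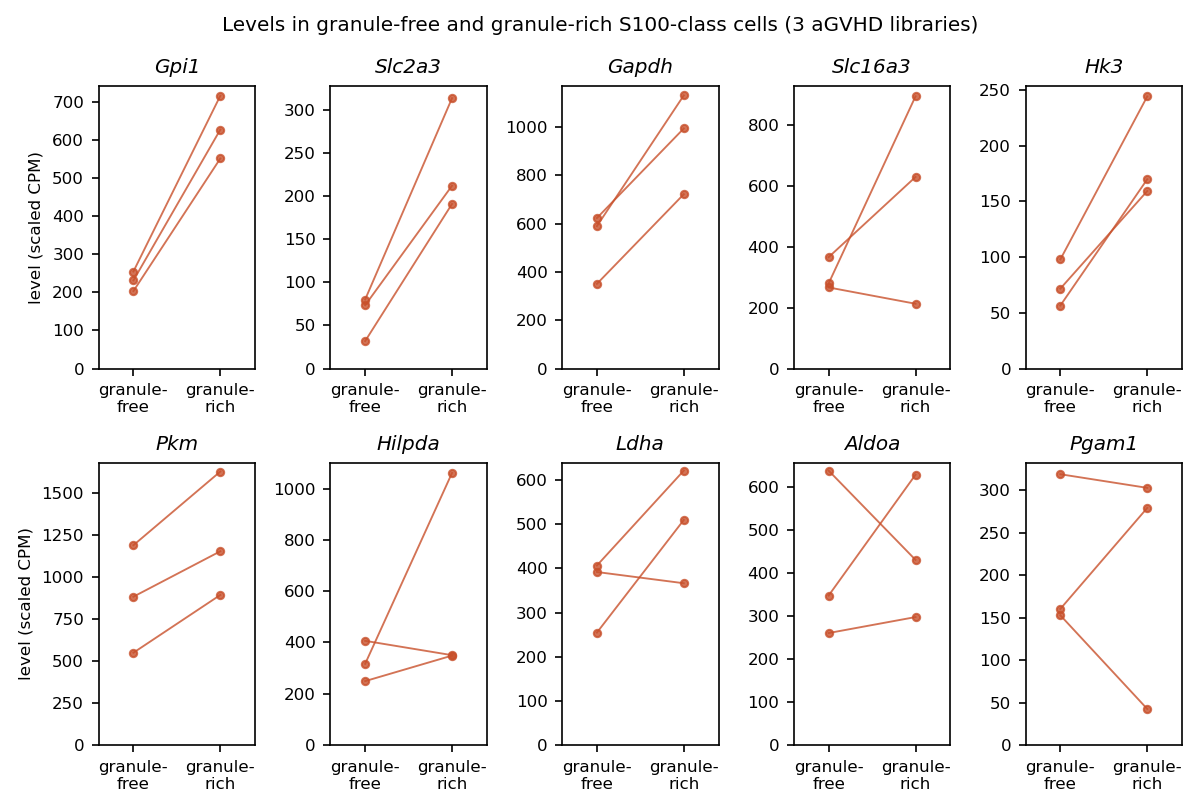
Level of the 10 members tested (y axes, scaled CPM) in granule-free and granule-rich S100-class cells of 3 aGVHD libraries, each joined by a line. All 3 lines rise for Gpi1, Slc2a3, Gapdh, Hk3 and Pkm, and 2 of 3 rise for Slc16a3.

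The 16 members that were not tested between groups over all kept cells had low levels, and a difference in them was not detectable at this depth with the low-count filter. Slc2a1, the ubiquitous glucose transporter, was at 24.8 ± 16.8 (SD, n = 10) scaled CPM in control libraries, against 51.8 ± 21.6 (SD, n = 12) with aGVHD. Bnip3 was at 16.3 ± 10.4 and 29.2 ± 8.84, and the means of Slc2a3 were 35.5 and 44.2. With no low-count filter Slc2a1 and Bnip3 were called higher, in a fit that called 7282 of 22839 genes (31.9%), 6839 of them lower. The phosphofructokinases Pfkp (40.5 ± 35.7 and 35.0 ± 15.2) and Pfkl (7.67 ± 8.43 and 8.78 ± 5.45) and the enolase Eno1 (33.2 ± 22.3 and 41.1 ± 15.4) had means closer together than their SDs. The oxygen sensors were at 12.5 ± 11.6 and 11.2 ± 6.76 for Egln1 and at 14.2 ± 13.3 and 21.2 ± 10.9 for Egln3. Hk1, Pfkfb3, Pgk1, Ddit4, Ndrg1, P4ha1, Ankrd37 and Adm held 11 to 138 transcripts each over all kept cells.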

How the data were processed

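Single-cell CEL-Seq2 libraries of gated ileal cells came as 22 tables of genes by 192 numbered barcodes. The submitters' processing notes name BWA 0.6.2-r126 and bcl2fastq 2.17.1.14; no genome build is given. Deposited values hold estimated counts of transcripts without depth normalisation, as read from the values: each of 1419098 values above 0 comes from a whole number of identifiers out of 4096 (tolerance 1e-06). They were rounded. No kept cells and no libraries were identical. Barcodes are plate positions with the same numbers in each library. Unnamed gene models took 31.91% to 78.52% of kept transcripts and were included in the 500 required. Doublets were not called.

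Transcripts were summed per library and class (S100 class in libraries with at least 10 such cells, C1q class with at least 3, pairs with at least 3 of each). The planned count model was replaced because the column check could not read the tables as counts, and the unit was entered as other. The sums were tested with limma 3.58.1 (R 4.3.3): voom weights on log2 CPM, trimmed-mean scaling (0.3 of ratios, 0.05 of levels), a filter of 10 transcripts at the median library size in as many sums as the smaller group has and 15 in all, the title set or the library as covariate, and Benjamini-Hochberg adjustment over all genes tested at 0.05, two-sided. The procedure was tested on simulated data.

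The members and lists were chosen with earlier results of these data known. Full values are given for members called in any comparison, for the 3 largest and 3 smallest coefficients in S100-class cells and for the 8 most abundant; list genes are named when called. Scaling, filters, weights, cell and class thresholds, title sets, small libraries and left-out libraries were varied. Ages, doses and cell numbers are per the labels' protocols.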

Additional observations from a re-analysis of the deposited data

Results flagged for a closer look

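Levels of the named members were screened within groups of 4 to 10 libraries for a highest or lowest library that stands apart by Dixon's criterion. The 12 aGVHD libraries were therefore not screened over all kept cells or in S100-class cells. Of 48 groups checked 6 were marked. The usual chance rate of about 1 in 20 assumes normally distributed levels, which sparse counts are not, so it is not applied here. Where a single library of a group holds any transcripts, as for Slc2a3 in control C1q-class cells, that library is marked whatever its level.

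Hilpda stood at 436.2 scaled CPM in the S100-class cells of control replicate 8 (22 transcripts in 14 cells), against 187.59 in the next control library. Without this library the log2 fold change of Hilpda in S100-class cells was 0.86 in place of 0.62 (limma adjusted p = 0.423). Over all kept cells Hilpda stood at 297.16 in control replicate 9, against 151.04 in the next library, and Vegfa at 420.98, against 181.24. Both levels come from 12 kept cells, with 12 transcripts of Hilpda and 17 of Vegfa. Without control replicate 9 the log2 fold change was 0.92 for Hilpda (adjusted p = 0.0824) and -0.51 for Vegfa (adjusted p = 0.441).

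In C1q-class cells Slc16a3 stood at 153.13 scaled CPM in control replicate 2 (7 transcripts in 3 cells), against 20.14 in the next library. Slc2a3 stood at 42.12 in aGVHD replicate 7 (5 transcripts in 5 cells), against 18.21, and at 19.02 in control replicate 8 (2 transcripts in 4 cells) with the other control libraries at 0.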

How the results depend on the processing

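Counts of members called and of all genes called moved with the setting; the cause was not tested. Between groups over all kept cells, 1 member and 152 genes were called, with 0 members and 30 genes in the dated set alone, 0 and 6 in the G1 set alone, 0 and 7 with the cell quality filter, 0 and 3 in libraries of at least 20 kept cells, 0 and 0 in cells of neither class (chosen after seeing the data), and 8 and 7282 with no low-count filter, where the median of all genes moved to -0.75. Leaving out each library gave 1 to 3 members and 70 to 189 genes, the fewest without control replicate 1 (70), aGVHD replicate 4 (84), control replicates 4 (87), 6 (91) and 9 (92) and aGVHD replicates 3 (97) and 8 (100). Hk3 was also called without aGVHD replicate 1 or control replicate 8, and Hilpda without aGVHD replicate 1. Pkm kept its call in 22 of 22 (log2 fold change 0.69 to 0.92, adjusted p up to 0.0451).

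The replicate block could be fitted over 12 dated libraries that share a title number. It gave 1 member (Hilpda, 1.26, adjusted p = 0.0416) and 21 genes, against 0 members and 5 genes for the same libraries without the block; in S100-class cells it gave 0 members and 0 genes. Same-numbered libraries correlated at -0.05 to 0.27, 5 of 6 pairs over 0.1, and 2 of 6 correlated best with their own number. With so few pairs these values do not decide whether such libraries share more than a number. No block was possible in the C1q class.

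In S100-class cells members stayed at 0 throughout. Of all genes 1 was called, 0 to 2 on leaving out a library, 5 with limma-trend, 14 with no filter, and 0 with either other scaling, a minimum of 250 or 1000 transcripts, the quality filter, either title set alone, libraries of at least 20 cells, an S100 minimum of 10 or granule-free cells only. Scaling by median of ratios moved the median of all genes there from 0.03 to -0.08. In the C1q class no filter gave 1 gene, and for the interaction 23. Between classes 4 members and 346 genes became 10 and 8362 with no filter and 0 and 49 with the quality filter. Hilpda and Pgam1 could not be tested with the quality filter, so their calls were not tried there. Leaving out a library gave 2 to 4 members and 298 to 414 genes. Between granule-rich and granule-free cells 5 members and 212 genes became 0 and 9 with no filter; members were 3 with median-of-ratios scaling, limma-trend or a minimum of 1000, and 2 with the total of named genes or the quality filter. Leaving out a library gave 2 to 5 members and 83 (without aGVHD replicate 4) to 167 genes.

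Of 510 values of single members under other settings 39 changed sign, and of 573 on leaving out a library 27; none was called on its new side. Over all kept cells Ldha turned to 0.32 with no filter, 0.018 with the named total, 0.085 with limma-trend, 0.027 at a minimum of 250, 0.086 with the quality filter and 0.31 in the G1 set, and Hif1a to 0.14 with no filter. Gapdh turned to -0.036 in libraries of at least 20 cells and -0.31 in cells of neither class. In S100-class cells Ldha turned to 0.22 with no filter, 0.036 at a minimum of 1000, 0.20 with the quality filter, 0.16 with the block, 0.20 without it, 0.21 at an S100 minimum of 10 and 0.20 in granule-free cells. Slc16a3 turned to -0.044 with median of ratios, -0.11 with the quality filter, -0.10 at an S100 minimum of 10 and -0.38 in granule-free cells, and Hif1a to 0.10 with no filter and 0.27 in the G1 set. In the C1q class Gapdh turned to 0.034 with median of ratios, 0.14 with no filter, 0.080 with the named total, 0.21 with limma-trend, 0.81 with the quality filter and 0.048 in the G1 set, and Aldoa to -0.0061 at a C1q minimum of 5. Between classes Gapdh turned to 0.069 with the quality filter, Gpi1 to 0.0067 with no filter and Aldoa to -0.0063 with the named total and -0.037 with limma-trend. Between granule-rich and granule-free cells Pgam1 turned to -0.32 with no filter, -0.056 with the named total and -0.18 with limma-trend, Aldoa to -0.18 and -0.0084 with the first pair of these, and Hilpda to -0.032 at a granule minimum of 10.

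On leaving out a library, Ldha ran from -0.18 to 0.15 over all kept cells and from -0.43 to 0.083 in S100-class cells, where Slc16a3 ran from -0.084 to 0.31. In the C1q class Gapdh ran from -0.19 to 0.16 and Aldoa from -0.11 to 0.47. Aldoa ran from -0.017 to 0.22 between classes, and without aGVHD replicate 6 Pgam1 and Aldoa reached -0.41 and -0.45 between granule-rich and granule-free cells, with highest values of 0.66 and 0.71. The planned count model was not run. Control sums were shallower (29334 to 223216 transcripts against 192625 to 347985), which limits what could be tested there.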

Other observations

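Barcodes with fewer than 100 transcripts, which entered no comparison, held 448 transcripts of the members. There were 1583 such barcodes, and the members made up 0.631% of their named-gene transcripts, against 0.642% in the kept cells. Single members differed in both directions. In CPM of named-gene transcripts, Pkm was at 1492 in these barcodes and 1186 in the kept cells. Ldha (816 against 431), Aldoa (887 against 576) and Pgam1 (662 against 356) were also higher there. Gapdh (422 against 772), Slc16a3 (113 against 368), Hilpda (169 against 417) and Gpi1 (253 against 316) were lower. Whether this bears on the values of the kept cells was not tested.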
